A study of Homo sapiens with 6 samples.

Results

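A set of 10 transcription factor genes that are known for the formation of the neural crest and for epithelial-mesenchymal transition (EMT) were followed in human pluripotent stem cells (hPSCs) kept in simulated microgravity (sµg) or in normal gravity (1g). They were chosen by name as DLX5, MSX1, PAX3, ZIC1, SOX9, SNAI1, SNAI2, TWIST1, ZEB1 and ZEB2, and all 10 members were found among the 60719 genes of the deposited tables. RNA was taken after 96 h from 3 sµg samples, which were rotated on a 2-D clinostat so that the pull of gravity averaged out over time, and from 3 1g samples, which stood still. By its labels every sample is of H1 and H9, a pair of human embryonic stem cell lines, grown in StemFlex medium on Matrigel. No genetic change is named in either condition. The labels name no drug, but by the study's methods cells of both conditions were seeded with a ROCK inhibitor before rotation began. The sources used here do not say which library is of which line, nor that the samples came from separate cultures, so each p-value covers the spread among the 6 samples alone, which may in part be technical.

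The neural crest is a migratory cell population of the vertebrate embryo that arises at the border between the neural plate and the surface ectoderm and gives rise to facial cartilage and bone, melanocytes and peripheral neurons and glia. BMP, WNT and FGF signals first induce border factors of the DLX, MSX, PAX and ZIC families. Crest specifiers such as SOX9 and SNAI2 follow, and factors of the SNAIL, TWIST and ZEB families repress epithelial genes such as CDH1, so that cells can leave the epithelium. Undifferentiated hPSCs grow as an epithelium, and most of these factors are known to be low in them.

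The libraries held between 19971097 and 20588215 expected counts in sµg and between 20876937 and 28506848 expected counts in 1g, where an expected count is the estimate by RSEM of the read pairs that came from a gene. The scaling factors lay between 0.988 and 1.012. Counts of sµg replicate 3 differed from those of the other sµg samples by 5.48 and 5.76 chi-square units per degree of freedom, against 1.65 between sµg replicates 1 and 2 and 1.81 to 2.19 between 1g samples, so called members are also given without it. The pluripotency factors POU5F1, NANOG and SOX2 had log2 fold changes of 0.02, -0.08 and 0.01 for sµg over 1g and did not pass the test (edgeR adjusted p = 0.784, 0.117 and 0.941). Of all 10 pluripotency markers fixed, 3 fell and 0 rose, among them DNMT3B and LIN28A (1.42-fold and 1.29-fold, adjusted p = 3.25e-09 and 3.32e-06). The members stood far below such genes. Summed over the 10 members, the level was 10.4 to 10.9 TPM (a level per transcript length, scaled to a constant sum per library) in sµg and 19.9 to 22.9 TPM in 1g, while the 10 markers summed to 5752 to 5812 TPM in sµg and 6093 to 6139 TPM in 1g.

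Among the members, DLX5, ZIC1, SOX9 and SNAI1 fell in sµg, and 0 rose by the same test. SNAI2 and ZEB2 were tested and did not pass. MSX1, PAX3, TWIST1 and ZEB1 had too few counts to be tested, and they are given as counts pooled over the 3 samples of a condition. Of all 16763 genes tested, 33.7% were called (edgeR quasi-likelihood test, Benjamini-Hochberg adjusted p under 0.05), 18.2% as lower and 15.5% as higher in sµg. Every sµg value lay below every 1g value, in CPM (counts scaled to library size), for all 6 members tested and for 23.7% of all genes tested. The median log2 fold change was -0.66 over the 6 members and 0.01 over all genes tested. DLX5 and SNAI2 reached the minimum for testing, 0.482 CPM in 3 samples, through the 1g samples alone, so the counts and the median over the tested members are a description of those that passed and not of all members. In bulk RNA, fewer cells that express a gene and less of its RNA per cell cannot be told apart.

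**Figure D1:**
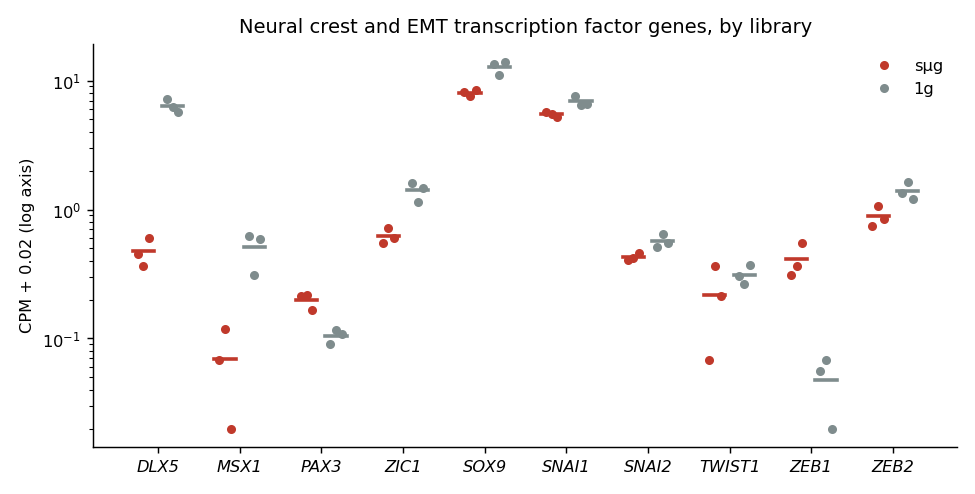
CPM of each member in each library on a log axis, after adding 0.02 so that a count of 0 can be drawn, with sµg on the left and 1g on the right of each gene and a bar at the mean of the 3 libraries. DLX5 lay between 0.348 and 0.583 CPM in sµg and between 5.73 and 7.13 CPM in 1g, and ZEB1 is the gene with the widest separation in the other direction.

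DLX5, a homeodomain factor of the neural plate border and of the developing jaw and skeleton, had the largest fall among the tested members. Its level was 0.433, 0.348 and 0.583 CPM in the sµg samples and 7.13, 6.21 and 5.73 CPM in the 1g samples. The groups were far apart, with 28 pooled counts in sµg against 459 in 1g. DLX5 fell 13.9-fold in sµg (log2 fold change -3.79 ± 0.21 SE, adjusted p = 1.06e-10), and without sµg replicate 3 its log2 fold change was -4.01. A log2 fold change of -1 or below was found for 481 genes, which is 2.87% of those tested. The gene (ENSG00000105880.7) lies on chromosome 7, minus strand, from 97020396 to 97024950 of GRCh38. Its canonical protein-coding transcript DLX5-203 took 92.9% of the counts in sµg and 88.8% in 1g. Of the 106 member transcripts only 4 were tested, and DLX5-203 alone was called (log2 fold change -3.74 ± 0.29, adjusted p = 0.00616). The call was lost without any 1 of the 3 1g samples. Among all 53807 transcripts tested, 1.29% were called lower. The short transcript DLX5-202, for which no coding sequence is defined, had 0 counts in sµg and 12.24, 2.94 and 12.63 expected counts in 1g.

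MSX1, a homeodomain repressor that acts downstream of BMP at the border, went the same way at a much lower level. It had 1, 2 and 0 counts in the sµg samples and 17, 6 and 13 counts in the 1g samples. The groups did not overlap in CPM. The pooled 3 and 36 counts give a ratio of 0.0969 for sµg over 1g, with a 95% exact interval of 0.0191 to 0.307 that covers counting error alone. The ratio was 0.048 without sµg replicate 2 and 0.146 without sµg replicate 3, the lowest and the highest with any 1 library left out. Left untested by the filter on low counts, MSX1 passed the test in the fit with no filter (log2 fold change -3.21, edgeR adjusted p = 1.96e-04). That fit called 5804 of 30865 genes, and its p-values follow a normal distribution, with no allowance for only 3 samples per condition. They are not comparable with those of the main fit. For DLX5 the edgeR adjusted p was 3.18e-63 with no filter against 1.06e-10 in the main fit, though the SE was larger (0.222 against 0.208). All its counts were on the canonical transcript MSX1-201, and the gene (ENSG00000163132.8) lies on chromosome 4, plus strand, from 4859665 to 4863936.

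ZIC1, a zinc-finger factor that with PAX3 is known to start the crest program in Xenopus embryos, fell in sµg. It had 0.529, 0.696 and 0.583 CPM in the sµg samples and 1.60, 1.12 and 1.45 CPM in the 1g samples. The highest sµg value stayed below the lowest 1g value, and the fall was 2.32-fold (log2 fold change -1.21 ± 0.29, adjusted p = 0.00317; -1.18 without sµg replicate 3). With an offset for the effective length of the gene in each library, the log2 fold change was -0.82 and no longer passed the test (adjusted p = 0.089). The canonical transcript ZIC1-201 took 55.4% of its counts in sµg and 71.0% in 1g (log2 fold change -1.57 ± 0.45, adjusted p = 0.201 over transcripts). ZIC1 (ENSG00000152977.10) lies on chromosome 3, plus strand, from 147393422 to 147510293, and overlaps ZIC4 on the other strand, which had 4 pooled counts in sµg and 17 in 1g.

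PAX3, a paired-box factor of the border and of melanocyte and muscle precursors, was close to the detection limit. It had 4, 4 and 3 counts in the sµg samples and 2, 2 and 2 counts in the 1g samples. The groups did not overlap in CPM, with sµg higher, but the values rest on these few counts. The ratio of the pooled 11 and 6 counts was 2.13 (95% exact interval 0.723 to 7.02), so no difference was detectable at this depth. Its counts fell on 4 of its 15 transcripts, none of them the canonical one. PAX3 (ENSG00000135903.20) lies on chromosome 2, minus strand, from 222199887 to 222298998, and the overlapping CCDC140 had 0 counts in all 6 libraries.

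SOX9, a high-mobility-group factor of crest specification and of cartilage, was the member with the most counts. It had 8.07, 7.55 and 8.45 CPM in the sµg samples and 13.4, 11.0 and 13.8 CPM in the 1g samples. All sµg values lay below all 1g values, and SOX9 fell 1.59-fold (log2 fold change -0.67 ± 0.10, adjusted p = 4.34e-05; -0.71 without sµg replicate 3). The fall passed the test in every alternative run, with log2 fold changes between -0.76 and -0.49. The single transcript SOX9-201 had an adjusted p of 0.0696 over transcripts, where 53807 were tested, so the gene and the transcript fits differ in the call. SOX9 (ENSG00000125398.8) lies on chromosome 17, plus strand, from 72121020 to 72126416, inside SOX9-AS1 on the other strand, which had 24 pooled counts in sµg and 40 in 1g.

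Among the EMT repressors, SNAI1 fell a little and SNAI2 did not pass the test. Both encode zinc-finger proteins that bind E-boxes (CANNTG, above all CAGGTG) in promoters such as that of CDH1. SNAI1 had 5.67, 5.47 and 5.20 CPM in the sµg samples and 7.52, 6.50 and 6.61 CPM in the 1g samples. The fall was 1.27-fold (log2 fold change -0.34 ± 0.11, adjusted p = 0.0256), and 1g replicate 1 held the highest value. The call was lost with DESeq2, with the length offset, with limma on TPM, and without sµg replicate 2, sµg replicate 3 or 1g replicate 1, where the adjusted p was 0.0577, 0.0582 and 0.14. SNAI1 (ENSG00000124216.4) has 1 transcript, SNAI1-201, which was not called over transcripts (adjusted p = 0.354). The gene lies on chromosome 20, plus strand, from 49982980 to 49988886.

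SNAI2, which is known as the crest member of the family in chick, had 0.385, 0.397 and 0.437 CPM in the sµg samples and 0.496, 0.630 and 0.529 CPM in the 1g samples. The values did not overlap, but they rest on 8 to 9 counts per sµg sample and 12 to 14 per 1g sample, and the log2 fold change of -0.42 ± 0.38 did not pass the test (adjusted p = 0.42). All 8 counts of sµg replicate 2 were assigned to the retained-intron transcript SNAI2-203, which had 0 counts in the other 5 libraries. SNAI2 (ENSG00000019549.13) lies on chromosome 8, minus strand, from 48917598 to 48921740.

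TWIST1, a basic helix-loop-helix factor of cranial mesenchyme, had 1, 7 and 4 counts in the sµg samples and 8, 5 and 8 counts in the 1g samples. The groups overlapped, and the pooled 12 and 21 counts give a ratio of 0.664 (95% exact interval 0.298 to 1.41). The ratio was 0.411 without sµg replicate 2 and 0.92 without sµg replicate 1. No difference was detectable at this depth. TWIST1 (ENSG00000122691.13) lies on chromosome 7, minus strand, from 19020991 to 19117636.

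ZEB1 and ZEB2, large zinc-finger and homeodomain repressors that both bind E-boxes, did not go together. ZEB1 had 6, 7 and 11 counts in the sµg samples and 1, 1 and 0 counts in the 1g samples. Every sµg sample lay above every 1g sample, and ZEB1 was the member with the largest ratio upwards. The pooled 24 and 2 counts give a ratio of 14.0 with a wide 95% exact interval, 3.46 to 122, and without sµg replicate 3 the ratio was 11.4 (2.57 to 104). Filtered out for its low counts, ZEB1 passed the test in the fit with no filter (log2 fold change 3.55, edgeR adjusted p = 7.05e-04). As for MSX1, that p-value makes no allowance for only 3 samples per condition and is not comparable with the main fit. At 0.233 ± 0.068 TPM in sµg and 0.0333 ± 0.0493 TPM in 1g (SD, n = 3 each), it stayed among the lowest members in both conditions.

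The ZEB1 counts were not all of coding transcripts. In sµg, 53.0% were assigned to the protein-coding ZEB1-201, and the retained-intron transcripts ZEB1-208 and ZEB1-216 took 26.3% and 16.4%. The canonical ZEB1-202 had 0 counts in all 6 libraries. ZEB1 (ENSG00000148516.22) lies on chromosome 10, plus strand, from 31318495 to 31529814, and its start overlaps the antisense gene ZEB1-AS1. ZEB1-AS1 had 115 pooled counts in sµg and 96 in 1g (log2 fold change 0.49 ± 0.23, adjusted p = 0.111). The library kit keeps strand, but RSEM was run with its default settings, which take no account of strand, so part of the reads of either gene may belong to the other, which was not tested.

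ZEB2, the second ZEB gene and the cause of Mowat-Wilson syndrome when a copy is lost, had 0.721, 1.04 and 0.826 CPM in the sµg samples and 1.31, 1.60 and 1.19 CPM in the 1g samples. The groups did not overlap in CPM, yet the log2 fold change of -0.66 ± 0.27 did not pass the test (adjusted p = 0.0711). It passed where genes needed 10 counts in every sample (-0.66, adjusted p = 0.0461). Per length, the levels were close, with 0.553 ± 0.187 TPM in sµg and 0.577 ± 0.324 TPM in 1g (SD, n = 3 each), and limma on log2(TPM + 0.1) gave 0.0039. The counts were spread over 15 of the 49 ZEB2 transcripts, and which of them held counts changed from library to library. ZEB2 (ENSG00000169554.22) lies on chromosome 2, minus strand, from 144364364 to 144521057, and the overlapping ZEB2-AS1 had 1 pooled count in each condition.

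**Figure D2:**
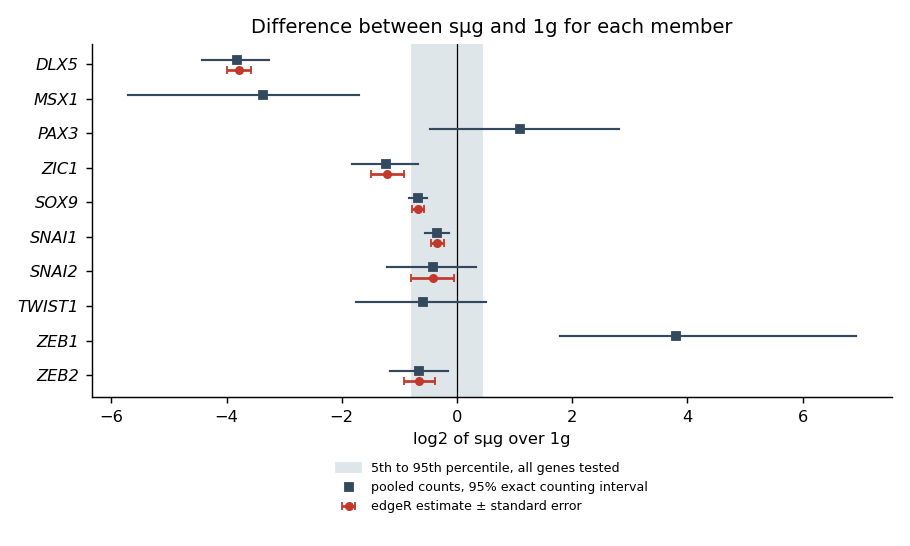
Log2 of sµg over 1g for each member, with the pooled counts and their 95% exact counting interval as squares and, for the 6 members tested, the edgeR estimate and its standard error as circles. The grey band holds the 5th to 95th percentile of all genes tested, from -0.77 to 0.44, and DLX5, MSX1 and ZIC1 lie to its left, while PAX3, whose interval spans 0, and ZEB1 lie to its right.

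The ZEB genes are the textbook targets of the miR-200 family, which falls into a pair of seed groups, and of miR-205. The mature sequences from RefSeq (GRCh38.p14) are shown with the seed, bases 2 to 8, in capitals, because the first 3 share one seed and the next 2 another.
hsa-miR-200b-3p: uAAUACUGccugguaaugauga
hsa-miR-200c-3p: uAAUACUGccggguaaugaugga
hsa-miR-429: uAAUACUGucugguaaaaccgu
hsa-miR-200a-3p: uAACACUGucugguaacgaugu
hsa-miR-141-3p: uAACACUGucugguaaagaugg
hsa-miR-205-5p: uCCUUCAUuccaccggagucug
Mature miRNAs were not measured by these poly(A) libraries. The site CAGTATT, which pairs with the seed AAUACUG, was searched on the transcript strand of the 3' untranslated region (UTR) of the canonical transcript of each gene in GENCODE 44. ZEB1 had 6 such sites, a number reached by 2 of 18894 genes, ZEB1 included, and 16.4% of genes had at least 1.
ZEB1 site 1: attgttttatcttatCAGTATTa
ZEB1 site 2: atgctaaatccgcttCAGTATTt
ZEB1 site 3: gtaagtgccatttctCAGTATTt
ZEB1 site 4: ctgatttttacctatCAGTATTa
ZEB1 site 5: tgtcttcaaacctggCAGTATTa
ZEB1 site 6: tcttttcatcattatCAGTATTt
ZEB2 had 5 sites, a number reached by 8 genes, both ZEB genes included, and they are shown because the pair of paralogues carries the site far more often than any other member.
ZEB2 site 1: cgcactaccatacatCAGTATTt
ZEB2 site 2: cgcactacaatgcatCAGTATTa
ZEB2 site 3: ttgaagcacccatgtCAGTATTa
ZEB2 site 4: gttcattaattttgtCAGTATTa
ZEB2 site 5: tcatactgtagtgtaCAGTATTa
Capitals mark the site in each 23-base stretch. In the shorter 3' UTR of ZEB1-201, the transcript that held most ZEB1 counts, 5 of the 6 sites lie. Of the other members, SNAI2 had 1 site and the rest had 0. The site CAGTGTT, for miR-200a and miR-141, was found 3 times in ZEB1 and 4 times in ZEB2, against at least once in 18.6% of genes, and the miR-205 site ATGAAGG once in ZEB1 and 0 times in ZEB2, against 11.7% of genes. A match is a description of the letters and not evidence of binding.

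The host transcripts of these miRNAs could be followed in part. MIR205HG, the host of miR-205, fell 4.27-fold in sµg (0.777 ± 0.286 CPM in sµg and 3.34 ± 0.34 CPM in 1g, SD, n = 3 each, adjusted p = 1.89e-06). MIR200CHG, the host of miR-200c and miR-141, had 14 pooled counts in sµg and 15 in 1g and was not tested. The list of ZEB-opposing epithelial factors and miRNA hosts held 9 genes tested, of which 7 fell and 0 rose, with a median log2 fold change of -0.90. Without MIR205HG, which reached the minimum through the 1g samples alone, 6 of 8 fell, with a median of -0.83. GRHL3, a grainyhead factor of the surface ectoderm, fell 6.38-fold (adjusted p = 4.17e-15), and the epithelial factors ELF3 and OVOL1 fell 3.63-fold and 1.86-fold (adjusted p = 2.47e-13 and 1.35e-06).

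RefSeq promoters of 300 bases, from 250 before to 50 after a start site (GRCh38.p14), were matched for 5 members, MSX1, PAX3, ZIC1, ZEB1 and ZEB2, in 11 windows because ZEB1 has 7 start sites. The E-box CAGGTG, read on both strands, was found in the windows of the first and the third ZEB1 start site and in no other member window. The third holds 3 of them, at bases -242, -85 and 34 from the start site, and it is shown for that reason, with the motif in capitals (CACCTG is the same motif on the other strand). At least 1 such motif stands in 20.6% of all 35116 promoters and at least 3 in 0.635%.
ZEB1 promoter at the third start site, chr10:31318966-31319265, plus strand: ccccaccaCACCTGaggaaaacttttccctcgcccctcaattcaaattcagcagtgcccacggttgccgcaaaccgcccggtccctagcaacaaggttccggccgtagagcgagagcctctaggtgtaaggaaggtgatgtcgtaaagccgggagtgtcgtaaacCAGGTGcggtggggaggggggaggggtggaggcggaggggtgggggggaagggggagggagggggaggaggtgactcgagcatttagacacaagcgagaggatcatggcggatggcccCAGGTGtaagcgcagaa

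The order of the levels also differed between the conditions. In sµg, SNAI1 led with 4.81 ± 0.34 TPM, followed by SOX9 with 2.85 ± 0.11 TPM and ZIC1 with 1.07 ± 0.21 TPM (SD, n = 3 each), and these neighbours did not overlap. Below them, ZEB2, DLX5, TWIST1, SNAI2 and ZEB1 formed a run in which neighbours overlapped, and PAX3 and MSX1, which overlapped with each other and lay below ZEB1, were last. In 1g, DLX5 came first with 7.09 ± 0.86 TPM, overlapping with SNAI1 at 5.93 ± 0.50 TPM, and SOX9 followed with 4.43 ± 0.52 TPM and ZIC1 with 1.82 ± 0.19 TPM (SD, n = 3 each). ZEB2, SNAI2, MSX1, TWIST1, PAX3 and ZEB1 came after these, each overlapping with the next. DLX5 thus lay below SOX9 and ZIC1 in sµg and above both in 1g, without overlap. Its order beside ZEB2 in sµg and beside SNAI1 in 1g was not resolved, because those samples overlapped.

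Close relatives of the members were read from the wider lists, and they are named here for their kinship, after their values were seen. DLX3 and DLX6, whose gene neighbours DLX5, fell 10.9-fold and 10.7-fold (adjusted p = 8.55e-09 and 3.73e-06). MSX2, which acts with MSX1, fell 7.09-fold (0.716 ± 0.131 CPM in sµg and 5.10 ± 0.66 CPM in 1g, SD, n = 3 each, adjusted p = 4.42e-09), and PAX7 fell 3.98-fold (adjusted p = 6.05e-05). DLX3, DLX6 and PAX7 reached the minimum for testing through the 1g samples alone, so their falls describe genes picked in part for being high in 1g. MSX2 reached it in both conditions. Among the relatives of ZIC1, ZIC2 rose (log2 fold change 0.30 ± 0.04, adjusted p = 6.72e-06), while ZIC5 had a log2 fold change of 0.10 and did not pass the test (adjusted p = 0.0747). Neither stands for the whole ZIC family. Both are known to be active in pluripotent cells. ZIC2 averaged 148 CPM in sµg and 120 CPM in 1g, and ZIC5 80.9 CPM in sµg and 75.5 CPM in 1g, far above ZIC1. SOX8 fell 1.60-fold (adjusted p = 0.00478), close to the 1.59-fold of SOX9. SNAI3 and TWIST2 had log2 fold changes of 0.03 and -0.63 and did not pass the test (adjusted p = 0.902 and 0.264).

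**Figure D3:**
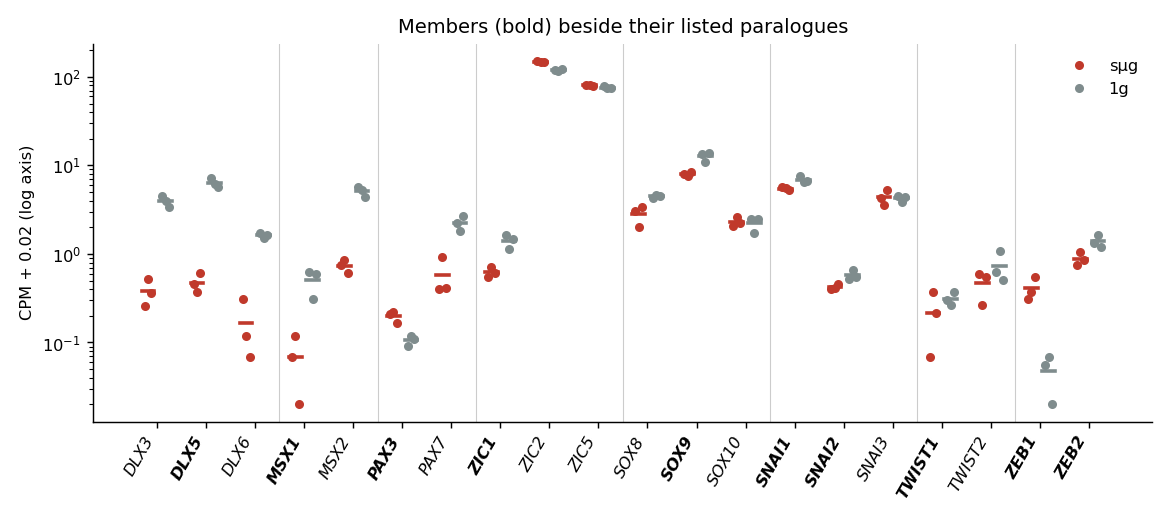
CPM of the members (bold) and of some of their paralogues in each library on a log axis, after adding 0.02. For each gene sµg is on the left and 1g on the right, with a bar at the mean of the 3 libraries. Grey lines stand between families. Every sµg point of the DLX and MSX genes lies below every 1g point, while ZIC2 and ZIC5 sit far above ZIC1, at 148 and 80.9 CPM on average in sµg and at 120 and 75.5 CPM in 1g.

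Of 22 other border and crest genes tested, 15 fell and 3 rose in sµg, with a median log2 fold change of -0.62. Of these, 4 (DLX3, DLX6, PAX7 and PRDM1) reached the minimum for testing through the 1g samples alone, and of the other 18 genes 11 fell and 3 rose, with a median of -0.56. Beside MSX2, those with the smallest adjusted p included TFAP2A and TFAP2C, AP-2 factors of the ectoderm and the border, which fell 6.88-fold and 4.43-fold (adjusted p = 4.77e-13 and 7.73e-13). The 5 markers fixed for the crest itself did not go one way. NGFR and ERBB3, receptors that are also found outside the crest, fell 1.53-fold and 1.21-fold (adjusted p = 5.35e-06 and 3.14e-05), FOXD3, which pluripotent cells also need, rose (log2 fold change 0.24 ± 0.08, adjusted p = 0.0232), and SOX10 had 2.30 ± 0.26 CPM in sµg and 2.22 ± 0.45 CPM in 1g (SD, n = 3 each, adjusted p = 0.907). TFAP2B had 0, 0 and 2 counts in sµg and 4, 5 and 13 counts in 1g and was left untested by the filter. In the fit with no filter, whose p-values are not comparable with the main fit, TFAP2B passed as lower in sµg (log2 fold change -3.07, edgeR adjusted p = 0.008). SOX10 and TFAP2B, the markers most particular to the crest, were thus low in both conditions, and the samples are called hPSCs here, as the labels do.

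Of 15 genes of inducing signals tested, 9 fell and 1 rose, with a median log2 fold change of -0.41. BMP4, the ligand that patterns the border, fell 5.01-fold (6.26 ± 1.15 CPM in sµg and 31.2 ± 1.5 CPM in 1g, SD, n = 3 each, adjusted p = 1.88e-12). BMP7 fell 2.56-fold, and FGF4 and FGF2 fell 4.71-fold and 1.27-fold (adjusted p = 1.06e-10, 1.32e-09 and 5.54e-06). Among genes of crest derivatives, 8 of 12 tested fell and 0 rose, with a median of -0.72. The minimum was reached through the 1g samples alone by 3 of them, ISL1, MITF and NEUROG2, and of the other 9 genes 6 fell, with a median of -0.43. The cartilage collagens COL9A1 and COL11A2, known targets of SOX9, fell 1.35-fold and 1.74-fold (adjusted p = 6.82e-06 and 4.84e-05), the melanosome gene PMEL, which pluripotent cells also express, fell 1.55-fold, and ISL1, of sensory neurons but also of amnion, fell 11.2-fold (adjusted p = 8.56e-10 and 9.16e-09).

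Among markers of trophectoderm and amnion, which BMP is also known to induce in hPSCs, most of those tested fell. A cause shared with DLX5 and MSX1 was not tested. Of the 12 markers, 9 were tested, 7 fell and 0 rose, with a median log2 fold change of -2.17. Of the 9, 4 reached the minimum through the 1g samples alone (GATA3, CDX2, ISL1 and VTCN1), and of the other 5 genes 4 fell, with a median of -0.76. All 12 markers together summed to 47.2 to 52.2 TPM in sµg and 87.1 to 96.7 TPM in 1g. GATA3 fell 26.8-fold and IGFBP3 1.69-fold (adjusted p = 7.48e-13 and 1.02e-09), while the placental hormone gene CGA and the trophoblast factor ELF5 had 0 counts in all 6 libraries. The list shares TFAP2A with the border list and ISL1 with the derivatives. The mesoderm and endoderm markers were lower in total, at 30.3 to 32.7 TPM in sµg and 29.3 to 30.2 TPM in 1g for mesoderm, and 4.09 to 5.02 TPM in sµg and 8.11 to 10.8 TPM in 1g for endoderm. Within them, 2 of 5 and 3 of 5 genes tested fell, and 1 and 0 rose. HAND1 and GATA6 reached the minimum through the 1g samples alone, and MIXL1 and FOXA2 through the sµg samples alone. Of the other 3 genes in each list, 1 mesoderm gene fell and 1 rose, while 2 endoderm genes fell and 0 rose. Of 6 neural markers tested, 3 fell, among them PAX6 (5.00-fold, adjusted p = 1.4e-07), and 1 rose, with sums of 186.8 to 203.2 TPM in sµg and 208.04 to 210.5 TPM in 1g. Fibroblast markers summed to 380.9 to 410.3 TPM in sµg and 391.8 to 412.9 TPM in 1g, with 3 of 6 tested lower, 2 higher and FAP at 0 counts in every library. The part of cells of these types in the members' values was not tested.

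Downstream of the EMT repressors, more genes fell than rose on both the epithelial and the mesenchymal side. Over all genes tested, 18.2% were called lower and 15.5% higher, with a median log2 fold change of 0.01. Of 24 epithelial genes tested, 12 fell and 1 rose, with a median log2 fold change of -0.16. The fall was largest among those named for TJP3, a tight junction protein (2.04-fold, adjusted p = 1.79e-09), and the protease PRSS8, the claudin CLDN7 and the keratin KRT19 fell 1.31-fold, 1.27-fold and 1.26-fold (adjusted p = 4.18e-07, 2.95e-06 and 3.74e-06). CDH1, the E-cadherin gene that SNAIL and ZEB proteins repress, fell 1.18-fold (350 ± 11 CPM in sµg and 413 ± 5 CPM in 1g, SD, n = 3 each, adjusted p = 5.45e-05) and is named here after its values were seen. Of 22 mesenchymal genes tested, 10 fell and 4 rose, with a median of -0.12. The collagen genes COL1A1 and COL5A1 fell 3.76-fold and 1.54-fold, the cadherin CDH6 fell 2.06-fold and the integrin ITGA5 fell 1.44-fold (adjusted p = 2.62e-12, 1.26e-06, 2.92e-09 and 8.21e-07). Among 11 other EMT factors tested, 2 fell and 3 rose, with a median of -0.14. The E-protein genes TCF12 and TCF4 and the SOX4 gene rose (log2 fold changes 0.52, 0.21 and 0.14, adjusted p = 1.34e-08, 0.00181 and 0.00957), and the homeobox gene PRRX2 fell 2.07-fold (adjusted p = 2.28e-05). TCF3, also an E-protein gene and named here after its values were seen, fell 1.08-fold (adjusted p = 0.0224).

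**Figure D4:**
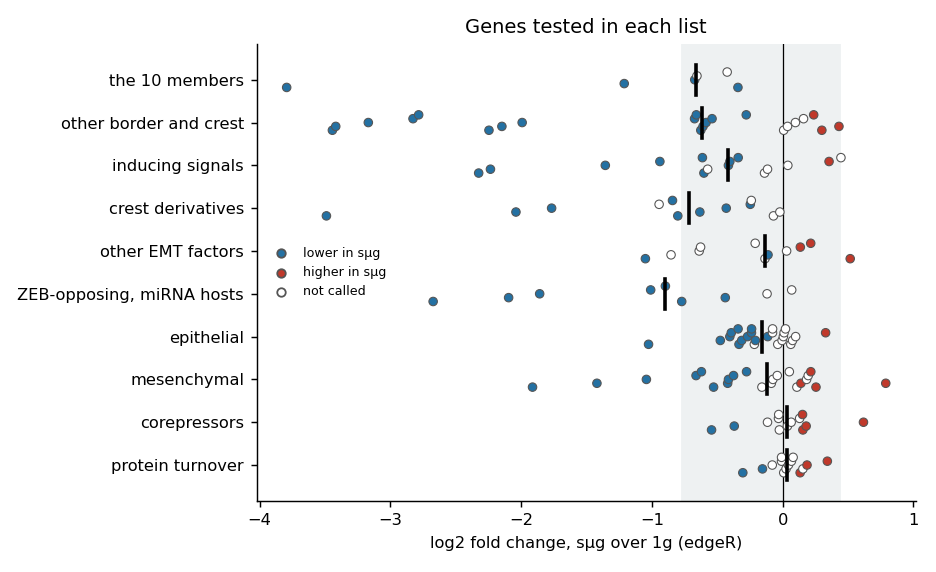
Log2 fold change of sµg over 1g for every tested gene of the members and 9 further lists, with blue points lower, red points higher and white points not called, a black bar at the median of the list and a grey band from the 5th to the 95th percentile of all genes tested. Among the lists drawn, the medians run from -0.90 for the ZEB-opposing factors and miRNA hosts to 0.04 for the corepressors, and the cell type markers are not drawn.

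The partners of these factors were close to even. Of 13 corepressor genes tested, 4 rose and 2 fell, with a median log2 fold change of 0.04. EZH2, the histone H3K27 methyltransferase that SNAI1 can recruit, rose (log2 fold change 0.62 ± 0.04, adjusted p = 4.79e-09), as did SIN3A (0.15, adjusted p = 0.00914), and the LIM protein gene AJUBA and HDAC1 fell 1.46-fold and 1.29-fold (adjusted p = 4.74e-08 and 1.65e-06). Of 14 genes that control turnover of the SNAIL, TWIST or ZEB proteins, 3 rose and 2 fell, with a median of 0.03. The ubiquitin ligase genes FBXL14 and FBXO22 rose (0.34 and 0.13, adjusted p = 0.0332 and 0.0264), FBXO45 fell 1.24-fold and the deubiquitinase gene USP37 fell 1.11-fold (adjusted p = 0.000145 and 0.0157). Proteins were not measured here.

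For each member tested, the genes most like it were taken as those with the highest Pearson correlation of log2 CPM over the 6 libraries among genes within 0.25 of its log2 fold change. The 6 points share the split between conditions, so these values are descriptions. For DLX5 they were CYP26A1, which breaks down retinoic acid, and DUSP9, an ERK phosphatase gene (r = 0.999 and 0.998, of 9 genes in the window). For ZIC1 they were PLIN5 and SPATA31A1 (r = 0.995 and 0.986), and for SOX9 B4GALT4 and RAB20 (r = 0.998 and 0.994). KCNJ2 and FAAH2 were nearest to SNAI1 (r = 0.996 and 0.995), LOXL3 and NUBPL to SNAI2 (r = 0.988 for both), and SMAGP and ASIC1 to ZEB2 (r = 0.995 and 0.987). The windows of SOX9, SNAI1, SNAI2 and ZEB2 held 1412, 4228, 3068 and 1488 genes, so a high correlation is easily found there. The window of ZIC1 held 299 genes.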

How the data were processed

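RNA of hPSCs was measured in 3 sµg and 3 1g poly(A) libraries of a stranded kit. According to the submitters' processing notes, STAR 2.7.7a and RSEM 1.3.3 were used with GRCh38.p13. By the study's methods RSEM ran with default parameters, which ignore strand. The authors deposited, per library, an RSEM expected count and a TPM value for every gene and transcript; neither is normalized between libraries beyond the constant sum of TPM. Identifiers are of GENCODE 36, and symbols and positions were taken from GENCODE 44 (42060 of 60719 genes paired with a symbol).

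Expected counts were rounded and tested in R 4.3.3 with edgeR 4.0.16 (robust quasi-likelihood fit, TMM scaling, filterByExpr at 10 counts, total 15, Benjamini-Hochberg over all genes, adjusted p under 0.05). SE was derived from the log2 fold change and the F statistic. Members under the filter were given as pooled counts with 95% exact conditional binomial intervals, which cover counting error only. Alternatives were DESeq2 1.42.0, RLE scaling, other filters, an effective length offset, limma 3.58.1 on log2(TPM + 1) and log2(TPM + 0.1), a replicate block and each library left out. The tests were tried on simulated counts. Depth was 19971097 to 28506848 counts per library.

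The text names all members, up to 4 genes of smallest adjusted p per list, POU5F1, NANOG and SOX2, genes overlapping a member, and the 2 genes most like each tested member. A gene that this rule would name is not reported here by itself. Members and lists were chosen with earlier results of these data known. Lists were described by counts and medians, with no set test.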

Additional observations from a re-analysis of the deposited data

How the results depend on the processing

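DLX5 and SOX9 kept their direction and call in every alternative that could be run for them, with log2 fold changes of sµg over 1g from -4.01 to -2.42 for DLX5 and from -0.76 to -0.49 for SOX9. With the effective length offset, 2 members were called lower in place of 4, ZIC1 had -0.82 (adjusted p = 0.089), SNAI1 had -0.34 (adjusted p = 0.104) and 3106 genes were called in place of 5648. Limma on TPM called 2954 genes with 1 added and 2924 with 0.1 added, and gave SNAI1 -0.26 and -0.30 (adjusted p = 0.11 and 0.112). With 0.1 added, ZEB2 changed sign, to 0.0039 (adjusted p = 0.995). DESeq2 gave SNAI1 -0.34 (adjusted p = 0.108). With no filter, 1 member was called higher, ZEB1, and 5 lower, MSX1 being the added one. That fit called 5804 of 30865 genes, and its p-values make no allowance for the few samples, so these calls are not comparable with the main ones. With at least 10 counts in every sample, ZEB2 passed at -0.66 (adjusted p = 0.0461). The causes of these differences were not tested.

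With each library left out in turn, 3 to 5 members were called lower. SNAI1 lay between -0.38 and -0.27 and lost its call without sµg replicate 2 (-0.34), sµg replicate 3 (-0.31) or 1g replicate 1 (-0.27). MSX1 reached the filter, and was called lower, without sµg replicate 1, 2 or 3 or 1g replicate 2. The count of member transcripts called lower, 1 for DLX5-203, was 0 without 1g replicate 1, 2 or 3 and 1 without any one sµg replicate. The study calls its control samples matched. No shared effect of replicate number was seen in expression, where the deviations of same-numbered samples correlated at -0.025, 0.037 and -0.01. These values cannot show whether the samples were matched in culture. With the replicate block, 4 members were called lower, 5676 genes were called, and 0 member transcripts were called. Low counts limit MSX1, PAX3, SNAI2, TWIST1 and ZEB1 the most.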
